A study of Mus musculus with 6 samples.

Results

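The report concerns 575 low protein-coding genes of mouse hepatocytes that face an active gene end to end, and how their RNA differed when the RNA-binding protein HuR was overexpressed. A pair of this kind is convergent: the genes lie on opposite strands and are read towards each other, so that their 3′ ends are neighbours. A gene was taken when its mean over the 3 beta-Gal libraries was below 1 FPKM (reads scaled by gene length and by a factor per library). At least 1 of the 6 libraries also had to be above 0. Its 3′ end had to lie 1 to 10000 bp from the 3′ end of a downstream gene on the other strand. That downstream gene needed a mean over the 6 libraries of at least 5 FPKM. Genes with an active gene of their own strand ending within 10000 bp upstream were left out. The 575 genes are 575 of 6210 low protein-coding genes, of 22058 protein-coding genes and of 54118 gene models in the table. The active genes across from them, called facing genes below, number 552, and 8 of these face at least 2 low genes.

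The tested group was made up of primary hepatocytes of C57BL/6 mice infected overnight with an adenovirus for HuR, and its control of the same cells infected overnight with an adenovirus for beta-Gal (beta-galactosidase), with 3 libraries each. Cells of both groups were isolated by collagenase perfusion, cultured in medium with 2% serum and carried a virus, and no uninfected cells were part of the comparison. HuR is the product of Elavl1 and binds U-rich and AU-rich stretches of RNA. Nothing in the labels says that the libraries of a group came from separate animals or cultures, so the spread that the p-values rest on is that between these libraries and may be technical.

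The whole reads behind the deposited values came to 15413306 to 17108184 per library. Elavl1 had 2434, 1662 and 1709 FPKM in HuR libraries and 5.45, 5.91 and 5.62 FPKM in beta-Gal libraries, where reads of the virus and of the mouse gene cannot be told apart. The 8 hepatocyte markers, of which 1 was called higher and 1 lower, summed to 19066 to 20317 FPKM in HuR and 17799 to 18145 FPKM in beta-Gal libraries. Of 10 macrophage markers 1 was called higher, with sums of 32.7 to 40.4 FPKM in HuR against 18.5 to 22.7 in beta-Gal libraries, and of 6 cholangiocyte markers 1 was called higher (180 to 198 FPKM in HuR against 138 to 151 in beta-Gal libraries, with Cftr at 0). Summed FPKM of HuR against beta-Gal libraries is given in brackets for the lists with no call. None of 7 endothelial markers (5.49 to 6.50 against 4.19 to 4.64), 8 stellate cell and fibroblast markers (0.402 to 0.679 against 0.369 to 0.461, with Acta2 at 0), 9 lymphocyte markers (0.015 to 0.155 against 0.040 to 0.085, with 5 at 0) or 5 neutrophil markers (0 to 0.428 against 0, with Elane and Mpo at 0) was called. The part of these other cell types in the results was not tested, and fewer cells of a type and less RNA per cell cannot be told apart in such bulk samples.

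RNA polymerase II runs past the end of a gene before it stops. The new RNA is cut a short way after a signal, most often the hexamer AATAAA in DNA letters, and the part made beyond the cut is degraded by a nuclease that helps to release the polymerase. At a convergent pair, RNA made beyond the end of one gene lies on the strand opposite to the other gene. The sources used here do not say whether the libraries kept the strand of the RNA, so reads of a low gene and reads of the opposite strand inside its model cannot be told apart.

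The ends of 3 pairs are shown because the pairs lie at the extremes described below: the low gene with the highest HuR level, the one facing the most abundant gene, and the one with the smallest gap, which was lower in HuR. Each line gives the last 30 bases of an annotated transcript that ends where the gene model ends, 5′ to 3′ on the strand of the gene, from GENCODE M21 on GRCm38, with AATAAA in capitals where it is found.
Cpm, plus strand, chr10:117687323-117687352: attatcAATAAAgaatattcatatagtgaa
Mdm2, minus strand, chr10:117688875-117688904: aagaattgtgaaagagatttgtcttacaca
Best1, minus strand, chr19:9985174-9985203: gagtttAATAAAcgtgaatattcttttagg
Fth1, plus strand, chr19:9985063-9985092: catttcttcaAATAAAgaattttggtaccc
C1ql3, minus strand, chr2:13003457-13003486: atttctccaatagaatacatttagactctc
Pter, plus strand, chr2:13003426-13003455: taccaaagAATAAAtttctctgactgttca

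Only the given strand was searched, for AATAAA and, where that was missing, ATTAAA. The first was found in the last 30 bases of 56.3% of 522 protein-coding facing genes and of 53.7% of 546 low genes whose end could be matched, against 55.3% of all 5778 protein-coding genes with a mean of at least 5 FPKM. ATTAAA without AATAAA was found in 13.4%, 14.5% and 13.1% of the same sets. Among the 94 low genes called higher in HuR with a matched end the shares were 60.6% and 19.1%, and among the 89 protein-coding facing genes of such low genes with a matched end they were 47.2% and 15.7%. A missing hexamer, as in Mdm2, says only that these letters are not in this window.

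As a group, the low genes had more reads in every HuR library than in any beta-Gal library. They held 12694, 14832 and 13588 reads in HuR libraries, or 0.0798, 0.0895 and 0.0882% of all reads, against 7394, 7792 and 7697 reads, or 0.0450, 0.0455 and 0.0462%, in beta-Gal libraries. Without Cpm, the gene with the most HuR reads, the sums were 11519, 13178 and 12228 reads in HuR and 7371, 7772 and 7680 reads in beta-Gal libraries. In HuR libraries 108, 82 and 90 of the 575 genes had no read, against 172, 165 and 165 in beta-Gal libraries. The number at 1 FPKM or more was 51, 57 and 53 in HuR libraries and 4, 5 and 7 in beta-Gal libraries. Since beta-Gal values below 1 FPKM selected the genes, these differences are a description and no test was made of them.

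By the fit across all gene models above 0 in at least 1 library (limma on log2(FPKM + 1), adjusted p below 0.05 and at least 10 reads over the 6 libraries), 102 of the 575 low genes were called higher in HuR and 4 were called lower. Over all 25016 gene models fitted, 9.81% were called higher and 9.75% lower. Every HuR value lay above every beta-Gal value in 203 low genes (35.3%) and below in 18 (3.13%), against 19.4% and 16.7% of all gene models. Because beta-Gal values chose the genes, nothing is read from these shares. Of the 575 genes 418 had at least 10 reads and 157 had fewer and could not be called. In 61 of the 418, fewer than 5 of the reads came from beta-Gal libraries, so that these passed through HuR reads, and 23 of the 102 called higher were of this kind. The median log2 difference over all 575 genes was 0.05 (0.01 over all gene models). At unadjusted p below 0.05 there were 164 higher and 12 lower. Without beta-Gal replicate 1, 2 or 3 the number called higher was 60, 63 and 63, and without HuR replicate 1, 2 or 3 it was 98, 79 and 80, with 51 genes called in all 6 cases.

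The comparison was also made with the selecting beta-Gal values kept out of the fit. They still counted towards the 10 reads that a call needs and towards the 6-library mean that defines active genes. When the low genes were chosen on beta-Gal replicate 1 alone and HuR was compared with the other two beta-Gal libraries, 61 of 580 genes (10.5%) were called higher and 1 lower, against 5.84% higher and 6.54% lower of all gene models in that fit. Chosen on replicate 2, 64 of 577 (11.1%) were higher and 1 lower, against 5.35% and 6.3%. Chosen on replicate 3, 63 of 574 (11.0%) were higher and 1 lower, against 5.54% and 6.33%. Low genes with no active neighbour, chosen and compared in the same way, were called higher in 2.89% of 4813, 2.50% of 4794 and 2.75% of 4805 cases. The fits are those without 1 beta-Gal replicate given above, on a similar number of genes, so they are not a separate check. The limit of 1 FPKM still leaves little room for a fall. This version was added after the data had been seen.

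The 102 genes called higher were still at low levels. Their median mean was 0.587 FPKM in HuR and 0.0696 FPKM in beta-Gal libraries, and the median log2 difference was 0.50 on the log2(FPKM + 1) scale, which understates the change of low genes. In 101 the HuR mean was at least 2 times the beta-Gal mean. A HuR mean of at least 1 FPKM was reached by 36 of them. Over all 575 low genes 15 reached 2 FPKM, and Cpm, Rflna and Il23a reached 5 FPKM, names that were looked up after the count was seen. No HuR library was the highest in most of them: replicate 1 was the highest HuR library in 32, replicate 2 in 32 and replicate 3 in 38. For a gene of 1 kb, 1 read is worth 0.0573 to 0.0664 FPKM, so many of the beta-Gal values rest on 1 or a few reads.

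Cpm, a membrane carboxypeptidase, had the highest HuR level. The gene (ENSMUSG00000020183) lies on chromosome 10 from 117629500 to 117687352 on the plus strand, and its 3′ end is 1523 bp from that of Mdm2, the ubiquitin ligase that limits p53. Cpm had 13.1, 16.5 and 14.6 FPKM in HuR libraries, against 0.231, 0.192 and 0.167 FPKM in beta-Gal libraries, from 4189 HuR reads in all against 60 beta-Gal reads. Its lowest HuR value is far above its highest beta-Gal value. The means were 14.7 ± 1.71 FPKM in HuR and 0.197 ± 0.0321 FPKM in beta-Gal libraries (SD, n = 3 each), a 74.9-fold ratio. Mdm2 had 141, 103 and 94.1 FPKM in HuR and 31.5, 33.2 and 33.4 FPKM in beta-Gal libraries, which differed by 1.73 on the log2(FPKM + 1) scale (SE 0.15, adjusted p = 0.00114 by limma).

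Of the other 11 genes named for the largest differences among those called, with a HuR mean of at least 1 FPKM and no overlap between groups, Rflna was next in size. Rflna, which binds filamin and organises actin, had 3.66, 7.45 and 6.88 FPKM in HuR and 0.216, 0.236 and 0.272 FPKM in beta-Gal libraries, with HuR replicate 1 the lowest of its group. Rbpjl, a transcription factor of pancreatic acinar cells, had 3.14, 2.17 and 1.64 FPKM in HuR and 0.0209, 0.0300 and 0.0205 FPKM in beta-Gal libraries, from 627 HuR reads against 7 beta-Gal reads. It faces the heparan sulfate proteoglycan gene Sdc4 at 8799 bp, which was also higher in HuR. Sdc4 had 168, 114 and 110 FPKM in HuR and 67.4, 74.3 and 69.5 FPKM in beta-Gal libraries (log2 difference 0.86, SE 0.16, limma adjusted p = 0.017), with replicate 1 the highest HuR library for both genes. The call of Sdc4 ended without HuR replicate 2 or any 1 beta-Gal replicate.

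In 4 of the pairs the low gene was higher and its facing gene lower in HuR. Il23a, the p19 subunit of the cytokine interleukin-23, had 19.2, 5.11 and 5.14 FPKM in HuR and 0.426, 0.638 and 1.07 FPKM in beta-Gal libraries. HuR replicate 1 set its mean apart, and its call ended without any 1 library except HuR replicate 1. Its facing gene Stat2, a transcription factor of interferon signalling 3290 bp away, had 7.38, 8.28 and 8.03 FPKM in HuR and 10.3, 11.0 and 11.2 FPKM in beta-Gal libraries (log2 difference -0.41, SE 0.06, limma adjusted p = 0.00499). Megf11, a cell surface protein with EGF repeats, had 2.29, 2.25 and 2.20 FPKM in HuR and 0.0964, 0.0821 and 0.0892 FPKM in beta-Gal libraries, with little spread in either group. It faces Rab11a, a small GTPase of recycling endosomes, at 6094 bp (24.7, 23.2 and 23.3 FPKM in HuR, 29.1, 28.0 and 26.9 FPKM in beta-Gal libraries).

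Fam212b, also called Inka2 and an inhibitor of a p21-activated kinase, had 3.11, 3.92 and 4.04 FPKM in HuR and 0.676, 0.852 and 0.552 FPKM in beta-Gal libraries, and faces the small GTPase Rap1a at 6425 bp. Fxyd4, a regulator of the sodium pump, had 1.63, 1.58 and 1.57 FPKM in HuR and 0.122, 0.0586 and 0.0300 FPKM in beta-Gal libraries, and faces the splicing regulator Hnrnpf at 7937 bp. The groups did not overlap in either gene. The log2 differences of the facing genes were -0.23 for Rab11a, -0.21 for Rap1a and -0.24 for Hnrnpf (limma adjusted p = 0.0149, 0.0281 and 0.00725). Without HuR replicate 2 or 3 or beta-Gal replicate 1 or 2 neither Rab11a nor Rap1a was called, and Rap1a was not called without beta-Gal replicate 3.

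In 5 further pairs the facing gene was not called. Best1, a chloride channel of the retinal pigment epithelium, had 1.88, 2.27 and 2.21 FPKM in HuR and 0.139, 0.213 and 0.109 FPKM in beta-Gal libraries. Its end is 82 bp from that of Fth1, the ferritin heavy chain, which had 6891, 6543 and 6458 FPKM in HuR and 6109, 6092 and 6219 FPKM in beta-Gal libraries (log2 difference 0.11, SE 0.11, limma adjusted p = 0.529). Dcst2, a sperm membrane protein, had 1.48, 2.14 and 1.71 FPKM in HuR and 0.0786, 0.10 and 0.0257 FPKM in beta-Gal libraries, 95 bp from the end of the transcription factor gene Zbtb7b (log2 difference 0.14, SE 0.05, limma adjusted p = 0.105). Both low genes lie within 100 bp of an end with abundant or moderate RNA, and in both the groups were far apart.

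Pgam2, the muscle phosphoglycerate mutase, had 3.24, 3.40 and 3.89 FPKM in HuR and 0.570, 0.341 and 0.559 FPKM in beta-Gal libraries, 678 bp from Dbnl. Ccnb2, a mitotic cyclin, had 2.99, 2.60 and 2.43 FPKM in HuR and 0.274, 0.187 and 0.460 FPKM in beta-Gal libraries, 7926 bp from Myo1e. Rhd, which codes for a red cell blood group protein, had 0.917, 1.75 and 2.41 FPKM in HuR and 0.150, 0.144 and 0.0368 FPKM in beta-Gal libraries, 1677 bp from Tmem50a. HuR replicate 1 was the lowest of its group for Rhd, and the call of Rhd ended without HuR replicate 2 or any 1 beta-Gal replicate. The calls of the 10 named genes other than Il23a and Rhd held without each library.

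**Figure D1:**
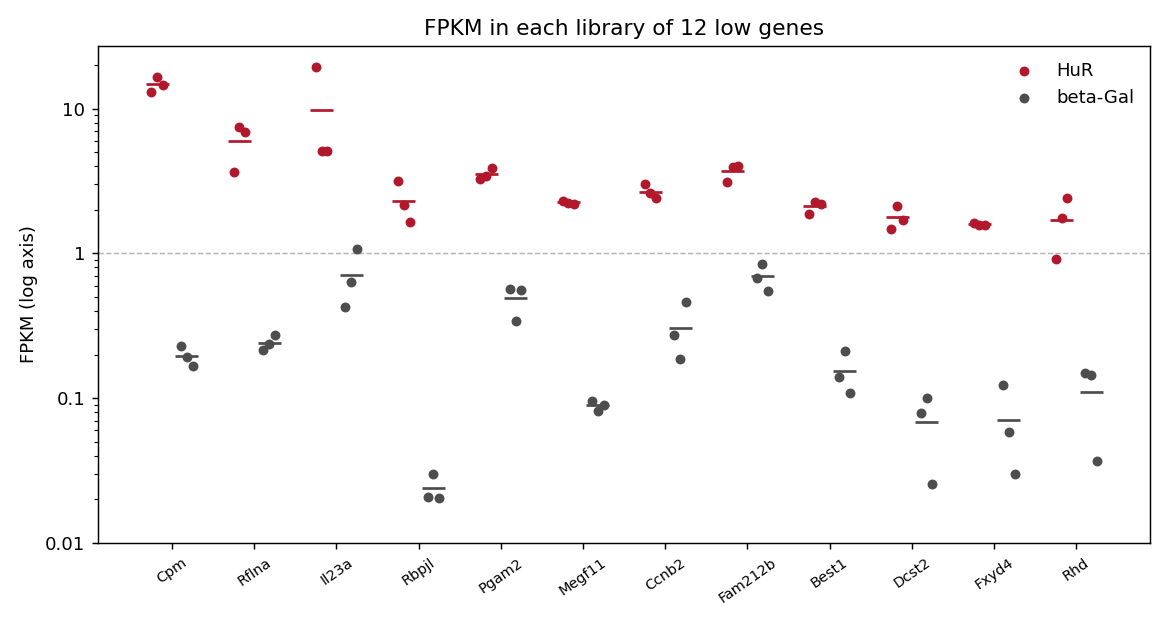
FPKM on a log axis in each library of the 12 named low genes that were higher in HuR. Points are libraries (HuR left and red, beta-Gal right and grey), bars are means, and the dashed line marks 1 FPKM. The HuR points lie above the beta-Gal points in each gene, and 1 of the 3 HuR points of Il23a, at 19.2 FPKM, stands above the other two.

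In 6 of the genes called higher, no read was found in any beta-Gal library. These names were looked up after the count was seen. Col6a2, a chain of collagen VI, had 40, 58 and 44 reads in HuR libraries, or 0.319, 0.415 and 0.339 FPKM. Its HuR mean was 50.8 times a floor of 3 reads over the beta-Gal group. Celf3, a neuronal RNA-binding protein, had 11, 13 and 13 reads, with a HuR mean of 13.3 times its floor. The tyrosine kinase gene Ptk6 and the incretin receptor gene Gipr had 26 and 22 HuR reads in all (9.43 and 7.92 times their floors). Sapcd1 and U90926 had 25 and 16 (9.14 and 5.72 times). Sapcd1 and Ptk6 were not called without HuR replicate 1 or any 1 beta-Gal replicate, and Sapcd1 not without HuR replicate 3. The floors cover counting error of the beta-Gal reads only, not that of the HuR reads. These 6 genes could gather the reads that a call needs only from HuR libraries. Their ratios to the floors were thus high in part through the way the genes were picked, and nothing is read from them. In all, 92 of the 575 low genes had no beta-Gal read and 20 had no HuR read.

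Among the 4 genes called lower were Kdf1, Dnaaf2 and C1ql3, each with few reads. Kdf1, a regulator of keratinocyte differentiation, had 0.223, 0.25 and 0.350 FPKM in HuR and 0.579, 0.506 and 0.789 FPKM in beta-Gal libraries, from 31 HuR reads against 76 beta-Gal reads. It faces Nudc, a dynein-associated protein, at 1752 bp, which was higher in HuR (log2 difference 0.30, SE 0.04, limma adjusted p = 0.00645). Dnaaf2, an assembly factor for dynein arms of cilia, had 0.0588, 0.105 and 0.189 FPKM in HuR and 0.406, 0.288 and 0.294 FPKM in beta-Gal libraries. Its facing gene at 2317 bp, the glycosyltransferase gene Mgat2, had 11.6, 15.4 and 14.6 FPKM in HuR and 24.3, 24.4 and 25.1 FPKM in beta-Gal libraries (log2 difference -0.79, SE 0.10, limma adjusted p = 0.0042). The beta-Gal limit of 1 FPKM leaves little room for a fall to be seen.

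C1ql3, a secreted C1q-like protein of the nervous system, had 0, 0.0939 and 0.0506 FPKM in HuR and 0.189, 0.226 and 0.185 FPKM in beta-Gal libraries, from 6 HuR reads against 26 beta-Gal reads. Its end, printed above, is 2 bp from that of Pter. The call of Kdf1 ended without any 1 library, that of Dnaaf2 without any 1 library except HuR replicate 3, and that of C1ql3 without HuR replicate 3 or any 1 beta-Gal replicate. The number called lower was 1 without each beta-Gal replicate and 2 without HuR replicate 1.

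The distance between the ends ran from 2 to 9931 bp with a median of 2809 bp. The smallest were 2 bp for C1ql3 and Pter and 3 bp for Hspa12b and 1700037H04Rik. C1ql3 was lower in HuR and faces Pter, a hydrolase gene that was also lower (17.7, 18.4 and 20.3 FPKM in HuR, 22.3, 23.0 and 23.0 FPKM in beta-Gal libraries, limma adjusted p = 0.0184, a call that ended without HuR replicate 2 or any 1 beta-Gal replicate). Hspa12b, a relative of heat shock protein 70, had 5 reads in HuR and 4 reads in beta-Gal libraries. At gaps of a few bases there were thus a low gene called lower and one with too few reads to call.

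Across distances the share of low genes whose groups did not overlap, with HuR above, was highest at short gaps. It was 43.8% of 130 genes at 1 to 1000 bp, 39.4% of 104 at 1001 to 2000 bp, 35.2% of 176 at 2001 to 5000 bp and 26.1% of 165 at 5001 to 10000 bp. Past the limit it was 28.7% of 202 genes at 10001 to 20000 bp, 17.8% of 490 at 20001 to 50000 bp and 15.1% of 4382 farther away or with no such gene ahead. The shares called higher were 19.2, 20.2, 17.0 and 15.8% within the limit and 14.4, 7.96 and 5.27% beyond it. Genes with fewer than 10 reads, which cannot be called, were 26 of 130, 21 of 104, 54 of 176 and 56 of 165 within the limit. Of the genes with at least 10 reads, 24.0, 25.3, 24.6 and 23.9% were called higher within the limit, with no order by distance, and 22.0, 13 and 9.03% beyond it. The shares on both sides of 10000 bp were close to each other. Over the 575 genes Spearman's rho between the gap and the log2 difference was -0.13, a description of points that share the 6 libraries.

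**Figure D2:**
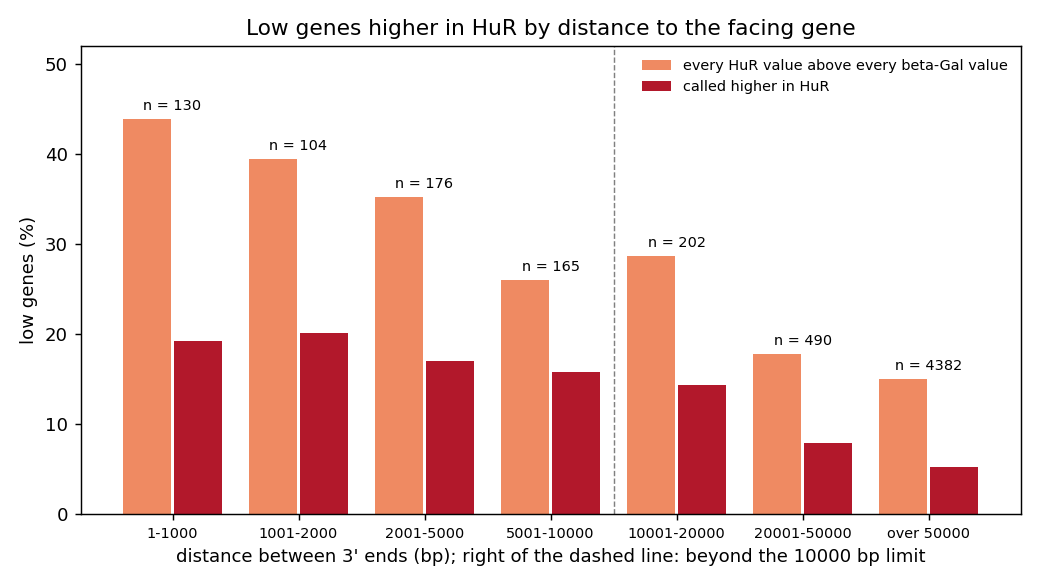
Share of low protein-coding genes, in percent, by the distance in bp between their 3′ end and that of the active gene ahead on the other strand. Light bars are genes in which every HuR value was above every beta-Gal value, dark bars genes called higher, n is the number of genes, and the light bars run from 43.8% at 1 to 1000 bp to 15.1% beyond 50000 bp.

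Level was not the same in each distance class. The median beta-Gal mean was 0.0742 FPKM at 1 to 1000 bp and 0.0546 FPKM at 5001 to 10000 bp, and 0.0383 FPKM beyond 50000 bp. Within beta-Gal means above 0.05 to 0.2 FPKM, 31.0% of 29 genes at 1 to 1000 bp were called higher, 29.6% of 27 at 1001 to 2000 bp, 24.0% of 50 at 2001 to 5000 bp and 15.4% of 39 at 5001 to 10000 bp. Beyond, the shares were 18% of 50, 10.1% of 109 and 8.30% of 879. Within means above 0.2 to 1 FPKM the 4 classes inside the limit gave 15.9, 19.2, 19 and 17.0%, with no order by distance, and the 3 beyond gave 21.4, 12.7 and 7.64%.

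Set beside low genes with other neighbours, the convergent ones held a middle place. Of the convergent low genes 17.7% were called higher and 0.696% lower. The shares were 28.5% and 0.432% of 463 low genes that follow an active gene of their own strand, 30.6% and 1.02% of 98 with both kinds of neighbour, 10.6% and 1.89% of 264 whose start lies beside the start of an active opposite gene, and 5.63% and 1.52% of 4810 with none of these within 10000 bp. Every one of these sets was chosen by the same beta-Gal rule. The median log2 differences were 0.05, 0.10, 0.15, 0.02 and 0.01 in the same order of sets.

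The sets kept this order, apart from the small set with both neighbours, when split by beta-Gal level. With no beta-Gal read, 6.52% of 92 convergent low genes were called higher, against 13.2% of 53 after a same-strand gene, 3.45% of 29 beside an opposite start and 3.08% of 778 with no active neighbour. Above 0 to 0.05 FPKM the shares were 18.4, 25.4, 7.04 and 3.46%, above 0.05 to 0.2 FPKM 24.1, 35.4, 11.7 and 8.74%, and above 0.2 to 1 FPKM 17.6, 31.3, 14.9 and 8.12%. With no beta-Gal read, a gene can reach the 10 reads that a call needs only through HuR reads, as 13 of the 92 convergent genes and 43 of the 778 without an active neighbour did, so nothing is read from that class. Above 0 to 0.05 FPKM, 107 of 179 and 673 of 1852 genes had 10 reads. In the other two classes nearly all genes of these sets had 10 reads, and the convergent share was above that of genes without an active neighbour. Differences between the sets were not tested. Among the convergent low genes, 37 also start beside an active opposite start and 10 of these were called higher. Another 29 overlap a further active gene and 4 of these were called higher.

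**Figure D3:**
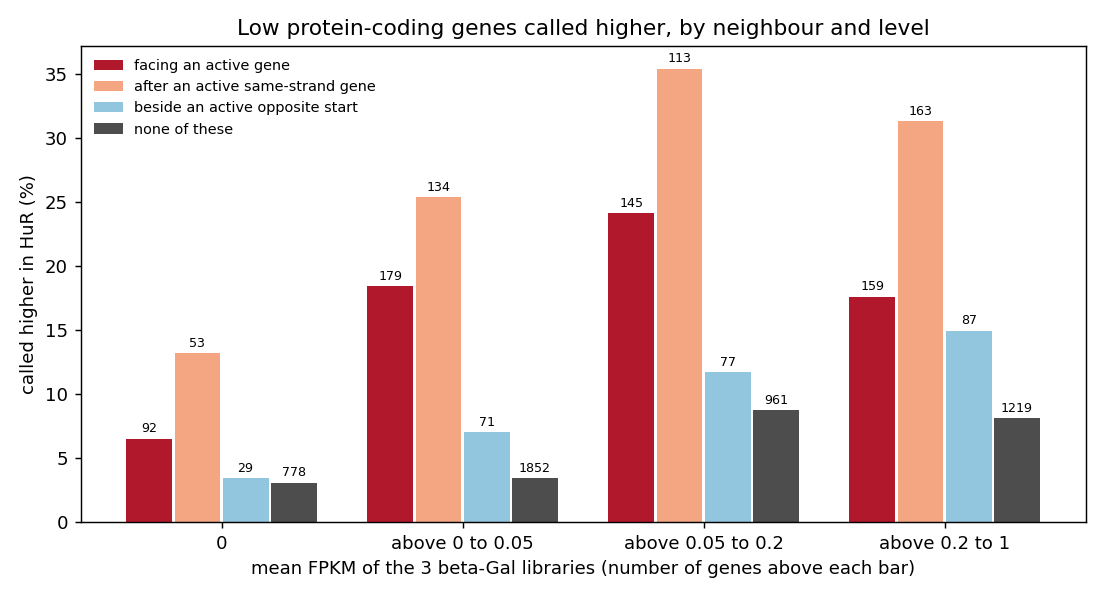
Share of low protein-coding genes called higher in HuR, in percent, in 4 classes of mean beta-Gal FPKM and by the kind of active neighbour within 10000 bp. The number above a bar is the number of genes, and above 0.05 to 0.2 FPKM the convergent genes (24.1%) stand between those after a same-strand gene (35.4%) and those with none of these neighbours (8.74%).

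The facing genes themselves moved in both directions. Of the 552 facing genes 125 were called higher and 143 lower (22.6% and 25.9%), where 18.9% and 23.1% of all 6551 gene models with a mean of at least 5 FPKM were. Their median log2 difference was 0.01, and 541 of them are protein-coding and 11 are not. The balance rests on the scaling: under TPM scaling 65 were higher and 186 lower, with the median of genes at 1 FPKM or more at -0.11, and with median centring 150 were higher and 123 lower. Without beta-Gal replicate 1, 2 or 3 the number called higher was 64, 65 and 66, and without HuR replicate 2 it was 77.

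The direction of the facing gene was set beside that of the low gene. Called higher were 22 of 127 low genes (17.3%) whose facing gene was higher, for 28 of 145 (19.3%) whose facing gene was lower and for 52 of 303 (17.2%) whose facing gene was not called. The median log2 difference of the low genes was 0.05, 0.05 and 0.04 in these 3 sets. Spearman's rho between the log2 difference of the low gene and that of its facing gene was 0.02 over the 575 pairs. With the mean level of the facing gene it was 0.09, and 14.2% of 226 low genes facing 5 to 10 FPKM were called higher, 18.5% of 222 facing 10 to 30 FPKM, 23.9% of 88 facing 30 to 100 FPKM and 20.5% of 39 facing 100 FPKM or more. By length, 25.9% of 139 low genes under 2 kb were called higher. The share was 16.7% of 203 at 2 to 4 kb and 13.7% of 233 at 4 kb or more. The shares with every HuR value above every beta-Gal value were 38.8, 33.0 and 35.2%, with no order by length. In a shorter gene 1 read is worth more FPKM, and whether this bears on the calls was not tested.

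**Figure D4:**
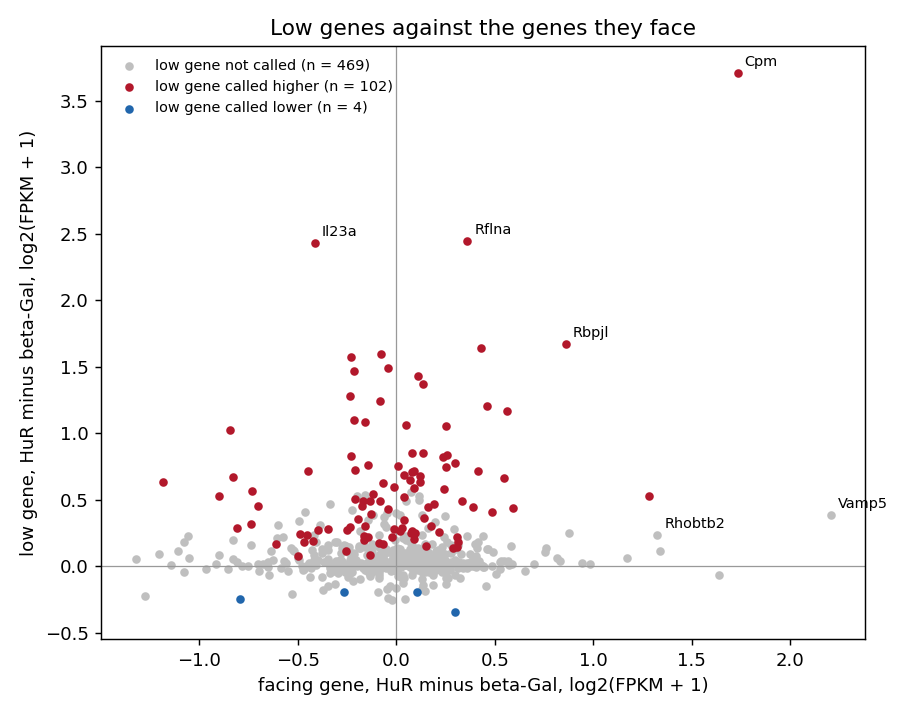
Difference of each low gene (vertical axis) against that of its facing gene (horizontal axis), HuR minus beta-Gal on the log2(FPKM + 1) scale, for 575 pairs. Red points are the 102 low genes called higher, blue the 4 called lower and grey the rest. Red points lie on both sides of the vertical line at 0, 22 of them facing a gene called higher and 28 facing one called lower.

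In 4 pairs with the largest rises of the facing gene among those whose low gene was not called, the values were as follows. Tmem150a had 4.38, 15.8 and 10.4 FPKM in HuR and 1.24, 1.41 and 0.947 FPKM in beta-Gal libraries (log2 difference 2.20, SE 0.41, limma adjusted p = 0.0152). Its beta-Gal mean was 1.20 FPKM and its HuR mean 10.2 FPKM. Tmem150a thus counted as active only through its HuR values, and nothing is read from its rise. Vamp5, a vesicle membrane protein 9032 bp from it, had 0.172, 1.10 and 0.0474 FPKM in HuR and 0.0664, 0.0212 and 0.0650 FPKM in beta-Gal libraries, with 1 HuR library, the one where Tmem150a was highest, above the rest. The secreted stress factor Gdf15 had 327, 136 and 130 FPKM in HuR and 55.9, 59.7 and 55.9 FPKM in beta-Gal libraries (1.64, SE 0.36, limma adjusted p = 0.0266), while Lrrc25, 8503 bp away, had 8 HuR reads and 12 beta-Gal reads. The groups overlapped in both low genes.

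Igfbp1, an insulin-like growth factor binding protein made by hepatocytes, had 897, 390 and 406 FPKM in HuR and 212, 204 and 201 FPKM in beta-Gal libraries (1.34, SE 0.32, limma adjusted p = 0.0373). Its relative Igfbp3, 3540 bp away, had 0.170, 0.0570 and 0.164 FPKM in HuR and 0.0574, 0.0366 and 0.0375 FPKM in beta-Gal libraries, with 1 HuR value just below the highest beta-Gal value. The death receptor gene Tnfrsf10b had 14.7, 13.5 and 13.0 FPKM in HuR and 4.48, 4.94 and 5.26 FPKM in beta-Gal libraries (1.32, SE 0.07, limma adjusted p = 0.000304). With a beta-Gal mean of 4.90 FPKM, Tnfrsf10b also passed the limit of 5 FPKM only through its HuR values. Rhobtb2, 579 bp away, had 0.472, 0.747 and 0.557 FPKM in HuR and 0.373, 0.300 and 0.388 FPKM in beta-Gal libraries, where the groups did not overlap. Gdf15 and Igfbp1 were called in neither fit without HuR replicate 2 or 3, nor without any 1 beta-Gal replicate, and Tmem150a not without HuR replicate 3 or any 1 beta-Gal replicate.

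Low genes beside the most abundant facing genes were higher in some pairs and not in others. After Best1 and Fth1 the next was Zfp618, a zinc finger gene, at 0.135, 0.115 and 0.219 FPKM in HuR and 0.128, 0.135 and 0.125 FPKM in beta-Gal libraries. It lies 3567 bp from Ambp, the precursor of alpha-1-microglobulin and bikunin, at 2397, 2224 and 2229 FPKM in HuR and 1886, 1865 and 1889 FPKM in beta-Gal libraries (log2 difference 0.28, SE 0.06, limma adjusted p = 0.0291). The call of Ambp ended under quantile normalization and without any 1 library except HuR replicate 1. The groups of Zfp618 overlapped.

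Ffar4, a receptor for long-chain fatty acids, had 1.38, 1.75 and 1.84 FPKM in HuR and 0.602, 0.906 and 0.758 FPKM in beta-Gal libraries, and was among those called higher, a call that ended without HuR replicate 2 or 3 or beta-Gal replicate 1 or 3. It faces the retinol carrier gene Rbp4 at 2357 bp, which had 1085, 1055 and 1088 FPKM in HuR and 1089, 1061 and 1106 FPKM in beta-Gal libraries. Akap17b, an anchoring protein of protein kinase A, had 0.686, 0.625 and 0.598 FPKM in HuR and 0.519, 0.602 and 0.635 FPKM in beta-Gal libraries, 2235 bp from Pgrmc1, a heme-binding membrane protein. Of these 4 low genes, Best1 and Ffar4 were called higher.

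The genes next to the limits of the rule were read as a description. Just inside the limit of 1 FPKM, Oxct2b had 1.45, 1.17 and 0.702 FPKM in HuR and 1.0, 0.595 and 1.35 FPKM in beta-Gal libraries, and Nradd had 2.30, 2.59 and 1.98 FPKM in HuR and 0.989, 1.20 and 0.710 FPKM in beta-Gal libraries. Pcdh12 had 0.592, 0.767 and 0.837 FPKM in HuR and 0.969, 1.02 and 0.901 FPKM in beta-Gal libraries. Just outside it, Tk1 had 2.12, 2.18 and 1.92 FPKM in HuR and 0.945, 0.916 and 1.17 FPKM in beta-Gal libraries, and Coprs had 0.948, 1.09 and 1.20 FPKM in HuR and 1.01, 1.07 and 0.966 FPKM in beta-Gal libraries. Of these 5 genes, Nradd and Tk1 had all HuR values above all beta-Gal values, and Pcdh12, which was not called, had all of them below.

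At the limit of distance, Dnhd1 (9931 bp from Rrp8) had 0.207, 0.182 and 0.276 FPKM in HuR and 0.155, 0.118 and 0.0972 FPKM in beta-Gal libraries, and Nefh (9887 bp from Thoc5) had 4 HuR reads and no beta-Gal read. Beyond it, Zfp957 (10045 bp from Vwa8) had 4 HuR reads and 2 beta-Gal reads. At the limit of the facing level, Lhx4 and Prlh, facing Acbd6 and Rab17 at means just above 5 FPKM, had 2 HuR reads each and no beta-Gal read. Just below it, Tmem150c and Myoz3, facing Enoph1 and Rbm22, had 1 and 4 HuR reads and 4 and 1 beta-Gal reads.

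Genes tied to the biology of gene 3′ ends were looked at as a list. Besides factors of cleavage, polyadenylation and termination it holds some of splicing, decapping and elongation, such as U2af2, Srsf3, Snrnp70, Dcp2 and Cdk9. Of the 45 listed genes, 6 were called higher and 12 lower and 27 were not called. Over all gene models with a mean of at least 5 FPKM 18.9% were called higher and 23.1% lower, and nothing particular to the list is read from its counts. The median log2 difference of the list was -0.01 (0.01 over all gene models and 0.01 over those with a mean of at least 5 FPKM). Under TPM scaling 4 were higher and 15 lower with a median of -0.12, and with median centring 8 were higher and 12 lower with a median of 0.03. Among the higher ones were Cstf3, a subunit of the cleavage stimulation factor, at 6.81 ± 0.749 FPKM in HuR and 3.88 ± 0.0658 in beta-Gal libraries (log2 difference 0.67, SE 0.08, limma adjusted p = 0.00291), and Nudt21, which helps choose poly(A) sites, at 10.4 ± 0.626 FPKM in HuR and 7.09 ± 0.471 in beta-Gal libraries (0.49, SE 0.06, adjusted p = 0.00424; SD, n = 3 each). Ppp1r10, which recruits protein phosphatase 1 to the polymerase, was at 12.2 ± 3.01 FPKM in HuR and 5.01 ± 0.263 in beta-Gal libraries (1.12, SE 0.16, limma adjusted p = 0.00561). The others called higher were Pcf11, Cpsf3 and Srsf3, of which Cpsf3 and Srsf3 were not called under TPM scaling. The calls of Pcf11, Cstf2t and Snrnp70 ended without any 1 beta-Gal replicate, that of Pcf11 also without HuR replicate 3, and that of Cpsf3 without HuR replicate 2 or beta-Gal replicate 2 or 3.

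The largest fall in the list was that of Ppp1cb, a catalytic subunit of protein phosphatase 1, at 4.84 ± 0.411 FPKM in HuR and 13.2 ± 0.426 in beta-Gal libraries (log2 difference -1.28, SE 0.06, limma adjusted p = 0.000237). The poly(A) polymerase gene Papola was at 16.9 ± 0.679 FPKM in HuR and 31.9 ± 1.03 in beta-Gal libraries (-0.88, SE 0.04, limma adjusted p = 0.000234). Zc3h4, which restrains transcription outside genes, was at 3.24 ± 0.110 FPKM in HuR and 5.97 ± 0.335 in beta-Gal libraries (-0.72, SE 0.06, limma adjusted p = 0.000958). Xrn2, the nuclease that degrades RNA beyond the cut, was at 19.6 ± 0.786 FPKM in HuR and 24.4 ± 0.912 in beta-Gal libraries (-0.30, SE 0.04, limma adjusted p = 0.00595; SD, n = 3 each). Also called lower were Cpsf2, Cpsf6, Cpsf7, Fip1l1, Cstf2t, Scaf8 and Snrnp70. Whether these differences bear on the low genes was not tested.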

How the data were processed

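The table deposited by the authors holds 1 FPKM column per library and lists the position, strand, length and biotype for each of 54118 gene models. These values scale reads by model length and by a factor per library that is not the read total alone. In HuR replicate 1, with 15902608 reads, 1 read per kb was worth 0.0664 FPKM. In HuR replicate 3, with 15413306 reads, 1 read per kb was worth 0.0641 FPKM. Upstream tools were DESeq2 1.16.1, the counter featureCounts 1.5.0-p3 and the aligner HISAT2 2.0.5, with the build GRCm38.p6, per the submitters' processing notes, which give no order. Multiplied by model length, the values of each library came out as whole reads (100% within a tolerance of 0.001), so reads could be counted.

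Neighbours were found from the coordinates of the table. limma 3.58.1 in R 4.3.3 was fitted on log2(FPKM + 1), a pseudocount of 1, with a variance trend, on every gene model above 0 in at least 1 library, with two-sided Benjamini-Hochberg adjusted p below 0.05 and the group as the only term. The fit was tested on simulated data, where genes of few reads gave false calls, so a call also needs 10 reads over the 6 libraries. This floor was added after the data had been seen. Low genes were chosen with earlier results of these data known, and so were the lists and the rule for named genes. That rule names the 12 called genes with the largest rises (HuR mean at least 1 FPKM, no overlap between groups), 3 falls, the 4 low genes facing the most abundant genes, the 3 smallest gaps, the genes next to each limit, 4 uncalled genes with the largest facing rises, and Cpm. Genes with clone names were skipped (1 each among the rises, the abundant facing genes, the genes just inside the level limit and those just beyond the gap limit). Some genes that this rule picks are not reported here. A few facing genes carry a date or no name in the table and are not named. Transcript ends came from GENCODE M21 by gene identifier and end position. Alternatives were 2 pseudocounts, 2 filters, 3 scalings, robust variance, limma voom on the recovered reads, the replicate block, protein-coding genes only, each library left out and 5 changes to the neighbour rule. Tables were handled with pandas 2.3.3 and numpy 2.4.6 under Python 3.11.15, correlations with scipy 1.17.1, plots with matplotlib 3.10.9.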

Additional observations from a re-analysis of the deposited data

How the results depend on the processing

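The count of convergent low genes called higher was 102, with 4 lower. It stayed within 1.5 times the main count under both pseudocounts, TPM scaling (98), median centring (135), quantile normalization (77), robust variance (87), limma voom (139), protein-coding genes only (137), the filter at 10 reads (113) and all 5 changes to the neighbour rule. Requiring 1 FPKM in at least 3 libraries left 39 of the 575 genes in the fit, of which 32 were called higher and 0 lower, with a median difference of 0.85. Since beta-Gal means were below 1 FPKM, genes pass that filter almost only through high HuR values, so the filter fixes these values and they support nothing. Leaving out 1 library gave 60 to 98 higher, 1 to 4 lower and a median of 0.05, and 64 to 113 facing genes higher and 94 to 131 lower. Chosen on 1 beta-Gal replicate alone, 61, 64 and 63 were higher and 1 lower each. The number called lower was 8 with limma voom and with protein-coding genes only, 1 with median centring, 10 with quantile normalization, and 0 with a pseudocount of 0.1, robust variance and the replicate block. The median difference was 0.0868 under TPM scaling, 0.0883 with median centring, 0.0968 with the filter at 10 reads, 0.81 with limma voom (genes with 10 reads, no pseudocount of 1), 0.26 and 0.0803 with pseudocounts of 0.1 and 0.5, 0.0191 with quantile normalization, 0.0579 for gaps up to 5000 bp and 0.0542 for facing genes of at least 10 FPKM. Of those facing genes 78 were lower. Facing genes called higher numbered 65 under TPM scaling. The cause of these shifts was not tested, beyond that fewer genes or libraries enter some fits. Same-numbered libraries showed no shared deviation, with correlations of -0.0228, 0.0211 and 1.18e-05. The labels do not say whether the numbers pair the libraries, and these values cannot decide it. With the number as a replicate block, 68 low genes were higher and 0 lower, and 77 facing genes were higher and 104 lower. No named difference changed sign where either fit called the gene. Some differences called in neither fit did change sign. Oxct2b went from 0.0901 to -0.0280 without HuR replicate 1, and Zfp618 from 0.0328 to -0.0234 with quantile normalization. Leaving out 1 library ended 107 calls of named genes, made 2 and left 365 results called or uncalled as before. With no read floor 103 low genes were called higher and 4 lower. Depth is one limit: 157 of the 575 genes had fewer than 10 reads in all.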
